A study of Mus musculus with 3 samples.

Results

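Grem1, Bmp4, Tgfb1, Tgfb2, Id1, Id2, Id3 and Tgfbi were followed as the sources, the antagonist and the response genes of BMP and TGF-beta signalling in a culture of mouse esophageal cells. These 8 genes were chosen by symbol from the 32287 features of the deposited matrix (32285 mouse gene IDs and the added sequences GFP and Scar), and all 8 were present. The cells, named PC, came from organoids of Trp53 floxed/floxed mice in which Cre recombinase, delivered by the adenovirus Ad-Cre-EGFP, removed Trp53 and CRISPR/Cas9 then disrupted Cdkn2a. They were dissociated, grown in DMEM with 10% FBS and the ROCK inhibitor Y-27632, and kept without the inhibitor after 3 passages. They expressed Cas9 constitutively, were transfected with a barcode library, and RFP-positive live cells were sorted for droplet sequencing. The labels list 3 libraries of these cells (gene expression, barcodes, scar regions) and give the tissue as esophageal cancer, while the values form 1 matrix, so there was 1 pooled sample, no replicate and no untreated group. A related line with a Notch1 knockout is not analysed here.

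BMP and TGF-beta proteins are secreted ligands that bring together type I and type II receptor kinases on the cell surface. BMP receptors act through SMAD1, SMAD5 and SMAD9, TGF-beta and activin receptors through SMAD2 and SMAD3, and both branches share SMAD4. GREM1 is a secreted antagonist that binds BMP2 and BMP4 outside the cell, and in the gut wall it is known as a product of stromal cells. Id1, Id2 and Id3 are classic BMP target genes, whose proteins bind E proteins and keep them from DNA, and Tgfbi encodes a secreted matrix protein named for its induction by TGF-beta.

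The promoters of these genes are shown first because SMAD-bound motifs are part of how the pathway is read. RefSeq start sites were available for 7 of the 8 genes on GRCm38.p6, with Id1 as the one without an entry, and the 250 bases before each start were searched on both strands. The SMAD-bound motifs were GGCGCC, a GC-rich motif bound by BMP-activated SMADs, and CAGAC (read as GTCTG on the other strand), the SMAD box. They share no base in the windows shown, and capitals mark them. GGCGCC occurred in the windows of Grem1, Id2 and Tgfbi, and in 9.59% of all 32851 windows of this length. The windows of Grem1, Id2 and Tgfbi had 72%, 62.8% and 62.4% GC, against a median of 52.4% over all windows. The part of GC content in these matches was not tested. CAGAC occurred in the windows of Grem1, Tgfb2, Id3 and Tgfbi, and in 42.2% of all windows. CANNTG (N for any base) and TATAAA were also searched and are not marked. CANNTG occurred in the windows of Bmp4, Tgfb2 and Id2, and in 66.2% of all windows. TATAAA occurred in that of Tgfb2, and in 12.4% of all windows. The windows of Grem1 (antagonist, chr2:113758649-113758898, minus strand) and Tgfbi (response gene, chr13:56609336-56609522, plus strand, the 187 bases outside the annotated gene) held both motifs and are given in full, 5′ to 3′. For Id2 (minus strand, chr12:25096306-25096335) and Id3 (plus strand, chr4:136143643-136143672 and chr4:136143742-136143771), 30 bases around each match are given, because their RefSeq windows lie within the longer GENCODE gene.
Grem1: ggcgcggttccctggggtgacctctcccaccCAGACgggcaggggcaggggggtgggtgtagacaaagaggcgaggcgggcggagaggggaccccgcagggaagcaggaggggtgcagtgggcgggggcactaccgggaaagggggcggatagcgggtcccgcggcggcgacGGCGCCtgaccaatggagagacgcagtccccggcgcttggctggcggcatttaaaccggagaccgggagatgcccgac
Tgfbi: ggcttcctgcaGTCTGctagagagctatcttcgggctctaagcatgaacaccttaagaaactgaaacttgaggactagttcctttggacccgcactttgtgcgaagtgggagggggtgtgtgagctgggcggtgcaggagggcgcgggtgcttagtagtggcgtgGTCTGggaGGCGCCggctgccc
Id2: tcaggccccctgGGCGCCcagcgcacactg
Id3 first site: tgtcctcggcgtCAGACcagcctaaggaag
Id3 second site: ggacccttggcgGTCTGttttgaataaggg
A match is a description of the letters only. It was not related to binding, for which the data hold no measurement.

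Of 18116 barcodes, 14925 were kept, with a median of 2955 UMIs, under a minimum of 500 genes and 1000 UMIs and a maximum of 20% UMIs of mitochondrial genes. Leiden clustering, with the 8 genes and all pathway genes named here held out of its features, gave 10 clusters numbered by size. Cluster 4, with 1958 cells (13.1% of cells) and a median of 3345 UMIs, was called mesenchymal-like. It had 8 of 15 mesenchymal markers raised, with Vim at 1026 UMIs per 1000000 UMIs (CPM) and Col1a1 at 287 CPM, but Lum and Thy1 had no UMI, Col1a2 had 4 UMIs and Pdgfrb was at 2.81 CPM. Its summed mesenchymal list was 3344 CPM against 177 CPM in epithelial-like cells, its smooth muscle list 5761 against 276 CPM, its interferon list 1318 against 439 CPM and its epithelial list 998 against 7032 CPM. Most of the smooth muscle sum was Acta2 at 5074 CPM and Tagln at 576.5 CPM. Actg2 and Cnn1 were at 85.2 and 24.5 CPM, while Myh11 and Des were at 0.886 and 0.148 CPM. Immune markers summed to 14.3 CPM and endothelial markers to 0.591 CPM in this class, with Ptprc and Cdh5 at 0. Clusters 1, 2, 3, 5, 6, 7, 9 and 10, with 12317 cells and a median of 2955 UMIs, were called epithelial-like. Cluster 8, with 650 cells (4.36%), a median of 1185 UMIs and 10.4% mitochondrial UMIs, had none of the 10 epithelial markers in 25% of its cells and stayed unnamed. Its basal squamous list was 1572 CPM, with Trp63 in 38.8% of its cells, Col17a1 in 30.9% and Itga6 in 29.1%. Krt5, Krt14, Krt17 and Itgb4 were in 8.77% to 17.4% of them, and Krt15 had no UMI. Its mesenchymal list was 92.8 CPM. Krt5 and Krt14, keratins of the basal squamous layer, were at 743.9 and 1334 CPM in epithelial-like cells, while Krt4 and Krt13, keratins of the differentiated esophageal lining, were at 0.872 and 7.56 CPM. Both marker lists were mixed in these cells. Krt15 of the basal squamous list was at 4.63 CPM. Krt6a, Sprr1a and Sprr1b of the differentiated squamous list were at 437.9, 201.8 and 106.8 CPM.

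Levels below are CPM from UMIs summed over a set of cells, with exact 95% Poisson intervals in parentheses, and shares of cells have exact Clopper-Pearson intervals. With 1 sample these intervals cover counting error only, and no test between conditions was possible. A difference was called when the ratio of 2 levels was at least 2, the higher level was at least 10 CPM and their intervals were apart. A level summed over cells does not separate fewer cells with a transcript from fewer transcripts per cell, so shares of cells are given beside the main levels. Between mesenchymal-like and epithelial-like cells, 9083 genes reached 10 CPM, of which 10.5% were called higher in mesenchymal-like and 9.86% higher in epithelial-like cells, or 20.3% in either direction. Of the 8 genes, 7 reached 10 CPM. Grem1, Tgfb1, Tgfb2 and Id3 were called higher in mesenchymal-like cells, Tgfbi was called higher in epithelial-like cells, and Id1 and Id2 were not called. The median ratio over these 7 genes was 2.12, against 0.988 over all genes that reached 10 CPM.

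Grem1 transcripts came almost entirely from the mesenchymal-like cells. Grem1 (ENSMUSG00000074934, chr2:113746164-113758646, minus strand, GRCm38) had 2427 UMIs in mesenchymal-like cells, a level of 358.6 CPM (344.4 to 373.1). In epithelial-like cells it had 15 UMIs, a level of 0.396 CPM (0.222 to 0.654). The ratio was 904 (547 to 1618), and 99.3% of all Grem1 UMIs in kept cells (98.9% to 99.6%) lay in the mesenchymal-like class. Clusters 3, 9 and 10 had no Grem1 UMI, which allows up to 0.374, 7.15 and 9.73 CPM at 3 UMIs, and the other epithelial-like clusters lay between 0.368 and 0.688 CPM with overlapping intervals. Grem1 was held out of the clustering, so its place among the leading genes of cluster 4 did not enter the definition of that cluster.

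Within the mesenchymal-like class Grem1 was uneven from cell to cell. It was detected in 50.8% of these cells (48.6% to 53.1%) and in 0.122% of epithelial-like cells (0.0682% to 0.201%). After each cell was thinned to 1500 UMIs, to set depths equal, the shares were 33.5% (31.4% to 35.7%) and 0.0801% (0.0366% to 0.152%). Thinning kept 1923 mesenchymal-like and 11233 epithelial-like cells and left out 35 and 1084. In thinned mesenchymal-like cells the variance of Grem1 was 1.78 times its mean, the highest cell had 9 UMIs, and the 192 cells with the most Grem1 held 52.6% of its UMIs. That share was not particular to Grem1. It was 52.4% for Tgfb2, whose variance was 1.08 times its mean, 54.3% for Id1 and 58.4% for Id2. For Id3 the share was 37.7%, and its variance was 2.22 times its mean, above that of Grem1. The share of thinned mesenchymal-like cells with 3 or more Grem1 UMIs was 4.73%, and no epithelial-like cell reached that number.

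**Figure D1:**
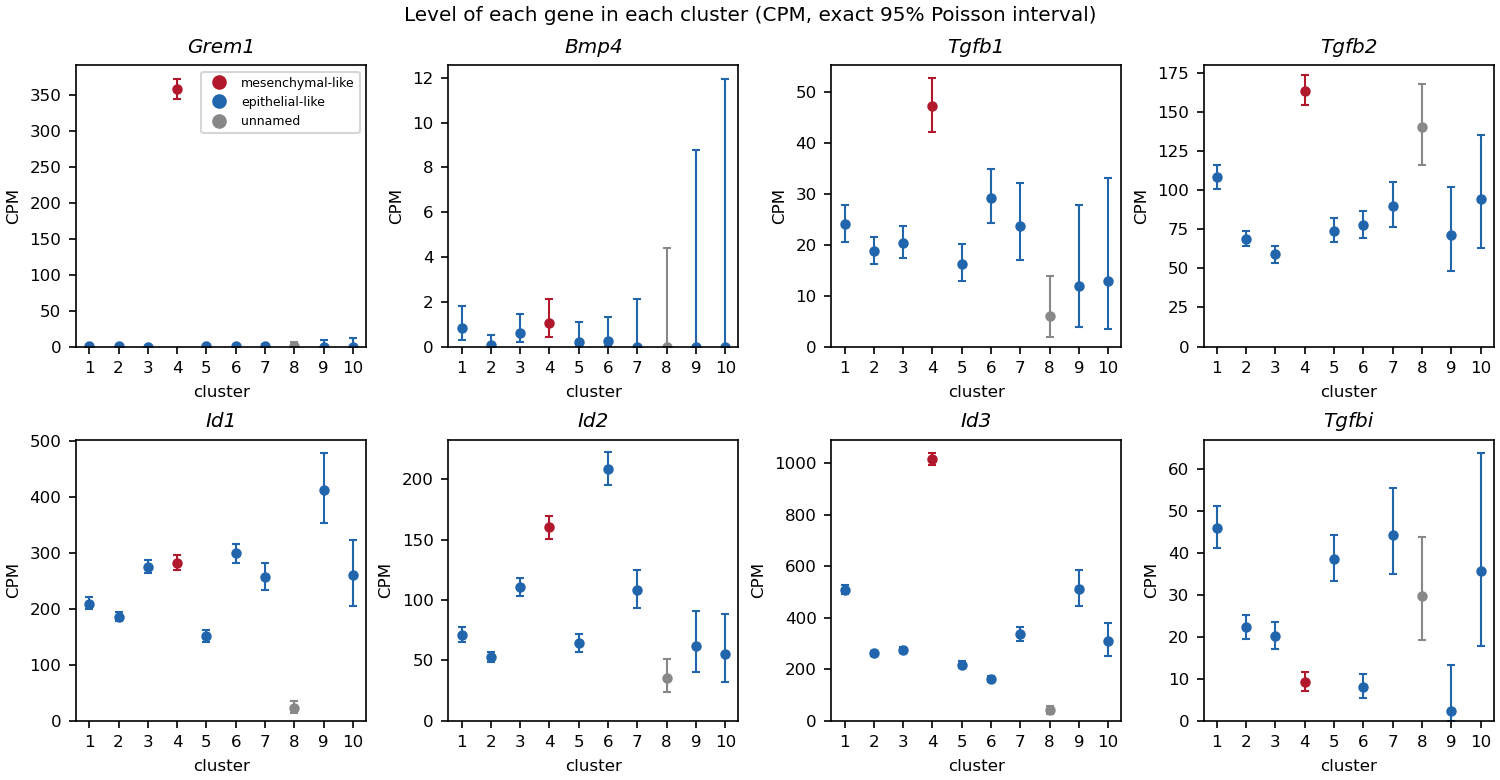
Level of each of the 8 genes in each of the 10 clusters, in CPM on linear axes from 0 that differ between panels, with exact 95% Poisson intervals. Red is the mesenchymal-like cluster, blue the epithelial-like clusters and grey the unnamed cluster. Grem1 stands at 358.6 CPM in cluster 4 and at or under 1.19 CPM elsewhere, while Id1 and Id2 peak in the epithelial-like clusters 9 and 6.

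The list of BMP antagonists and modulators, Grem1 included, divided between the classes. Of its 14 genes, 7 reached 10 CPM. Of these, 5, Grem1 among them, were called higher in mesenchymal-like cells and 1 in epithelial-like cells, and the median ratio of the 7 was 4.86. Bmper, which encodes a secreted BMP-binding protein, was at 69.1 CPM against 1.64 CPM, a ratio of 42.2. Fstl1, a follistatin-like glycoprotein, was at 1523 against 52.7 CPM, a ratio of 28.9. Nbl1, a relative of gremlin, was at 93.1 against 19.2 CPM (ratio 4.86), and Fstl3, an activin-binding protein, at 65.9 against 13.8 CPM (ratio 4.76). The exception was Fst, which encodes follistatin, an inhibitor of activins and of some BMPs. It was at 28.2 CPM in mesenchymal-like and 145.2 CPM in epithelial-like cells, 5.15 times higher in the latter, and among clusters it was highest in cluster 7 (364.9 CPM) and cluster 3 (220.9 CPM). Noggin and chordin stayed below 10 CPM, with Nog at 0.886 and 1.48 CPM and Chrd at 0.739 and 0.132 CPM in mesenchymal-like and epithelial-like cells. Chrdl2 and Sost had no UMI in either class, and a level of up to 0.443 CPM in mesenchymal-like and 0.0793 CPM in epithelial-like cells would still be possible at 3 UMIs.

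BMP ligands were scarce. Bmp4 (ENSMUSG00000021835, chr14:46383520-46390669, minus strand), one of the ligands that GREM1 binds, had 21 UMIs in all kept cells, a level of 0.462 CPM (0.286 to 0.706). Of these, 7 UMIs lay in mesenchymal-like cells (1.03 CPM, 0.416 to 2.13) and 14 in epithelial-like cells (0.370 CPM, 0.202 to 0.621). The intervals overlapped, the ratio of 2.79 had an interval from 0.955 to 7.40, and at this depth no difference between the classes was detectable. No cell had more than 1 Bmp4 UMI. An antisense gene that overlaps Bmp4, Gm15222, had 57 UMIs, and since the sources used here do not say whether counting used strand, reads of the pair cannot be told apart.

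Bmp2, whose protein GREM1 also binds, was the 1 of 11 listed BMP ligands that reached 10 CPM. It was at 29.1 CPM (25.2 to 33.5) in mesenchymal-like and 6.55 CPM (5.76 to 7.42) in epithelial-like cells, a ratio of 4.44 (3.66 to 5.38), and was called higher in the former. Bmp6 was at 2.81 and 8.25 CPM in the same order, below the minimum. Bmp5, Gdf5, Gdf6 and Gdf7 had no UMI in either class.

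Bmp2 was detected more often in mesenchymal-like cells with a Grem1 UMI than in those without. At thinned depth, 32 of the 645 cells with a Grem1 UMI also had a Bmp2 UMI, or 4.96% (3.42% to 6.93%), against 24 of the 1278 cells without, or 1.88% (1.21% to 2.78%). The intervals were apart, as they also were, in the same direction, for Fstl1 (87.3% and 80.3%), Pmepa1 (87.3% and 81.8%) and Fn1 (98.6% and 96.4%). Every other gene of the pathway lists was looked at in the same way, and its intervals overlapped. The intervals were not widened for the number of genes looked at. How often genes outside these lists differ in this way was not tested, so the split does not single out Bmp2. For Bmp4 the shares were 0.155% and 0.156%, 1 and 2 cells. Id3 was detected in 69.3% (65.6% to 72.8%) of cells with and 63.5% (60.8% to 66.1%) of cells without a Grem1 UMI, with intervals that overlapped, and Tgfb2 in 23.1% and 22.3%. The summed epithelial list moved with this split, at 690 CPM in cells with and 1017 CPM in cells without a Grem1 UMI. So did the cycling list, at 130.2 and 268.1 CPM, the smooth muscle list, at 4899 and 6031 CPM, and the mesenchymal list, at 3868 and 3238 CPM. The part of these lists in the shares was not tested.

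The ligand genes Tgfb1 and Tgfb2 were detected in both classes, at a higher level in mesenchymal-like cells. Tgfb1 (ENSMUSG00000002603, chr7:25687002-25705077, plus strand) was at 47.3 CPM (42.2 to 52.7) in mesenchymal-like and 21.1 CPM (19.6 to 22.6) in epithelial-like cells, a ratio of 2.24 (1.97 to 2.56). After thinning the ratio was 1.99 and the gene was no longer called. The level in cluster 4 was above that of all 8 epithelial-like clusters with intervals apart, the highest of which was cluster 6 (29.3 CPM) and the lowest cluster 9 (11.9 CPM, on 5 UMIs). The more numerous epithelial-like cells held 71.0% (68.3% to 73.7%) of the Tgfb1 UMIs.

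Tgfb2 (ENSMUSG00000039239, chr1:186622792-186705989, minus strand) was at 163.7 CPM (154.2 to 173.6) in mesenchymal-like and 77.3 CPM (74.5 to 80.1) in epithelial-like cells, a ratio of 2.12 (1.98 to 2.27). It was above all 8 epithelial-like clusters, with cluster 1 the highest of these (108.3 CPM) and cluster 3 the lowest (58.9 CPM). The unnamed cluster 8 reached 140.4 CPM (116.2 to 168.2), overlapping cluster 4. Epithelial-like cells held 70.5% (69.0% to 71.8%) of the Tgfb2 UMIs. An antisense gene, Gm29491, overlaps Tgfb2 and had 123 UMIs.

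The wider TGF-beta and activin ligand list had 6 genes, of which 5 reached 10 CPM, with a median ratio of 2.24. Besides Tgfb1 and Tgfb2, Tgfb3 was called higher in mesenchymal-like cells at 52.6 against 8.70 CPM (ratio 6.05), and so was Inhba, which encodes the activin A subunit, at 1314 against 306.2 CPM (ratio 4.29). Inhbb, the activin B subunit, was called higher in epithelial-like cells, at 16.3 against 4.43 CPM. Inha was below 10 CPM in both.

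TGF-beta is secreted in a latent form, held by its own propeptide and by LTBP proteins, and integrins and thrombospondin-1 are known to release it. Of 12 listed genes for these steps, 11 reached 10 CPM, 4 were called higher in mesenchymal-like and 2 higher in epithelial-like cells, and the median ratio was 1.66. The integrin subunit genes split by class. Itgb3 was at 77.9 against 2.14 CPM (ratio 36.4) and Itgb5 at 169.5 against 62.4 CPM (ratio 2.71), higher in mesenchymal-like cells. Itgb6 was 9.18 times higher in epithelial-like cells, at 166.8 against 18.2 CPM, and Itgb8 was 2.31 times higher there, at 11.6 against 5.02 CPM. Thbs1, the thrombospondin-1 gene, was at 5525 against 1218 CPM (ratio 4.53) and Ltbp3 at 72.7 against 19.8 CPM (ratio 3.68), both higher in mesenchymal-like cells.

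Receptor genes were called in both directions, and no SMAD or corepressor above 10 CPM was called, beside 20.3% of all genes called in either direction. Of 7 BMP receptor genes, 4 reached 10 CPM and only Bmpr2, the BMP type II receptor, was called, at 180.5 against 89.5 CPM (ratio 2.02) with mesenchymal-like cells higher. The type I receptor gene Bmpr1a was at 84.5 and 82.1 CPM and Acvr1 at 101.1 and 66.1 CPM. The median ratio of these 4 was 1.25. Of 5 TGF-beta receptor genes, 4 reached 10 CPM, with a median ratio of 1.10. Tgfbr2, the type II receptor, was called higher in mesenchymal-like cells at 138.6 against 66.7 CPM (ratio 2.08), and Tgfbr3, the co-receptor betaglycan, at 26.9 against 0.211 CPM (ratio 127). Tgfbr1, the type I receptor, went the other way, at 20.4 against 49.9 CPM, 2.45 times higher in epithelial-like cells. None of the 2 BMP SMADs and none of the 6 TGF-beta SMADs and corepressors above 10 CPM was called (median ratios 1.00 and 1.45), and the highest ratio among them was 1.93 for Smad7, an inhibitory SMAD.

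**Figure D2:**
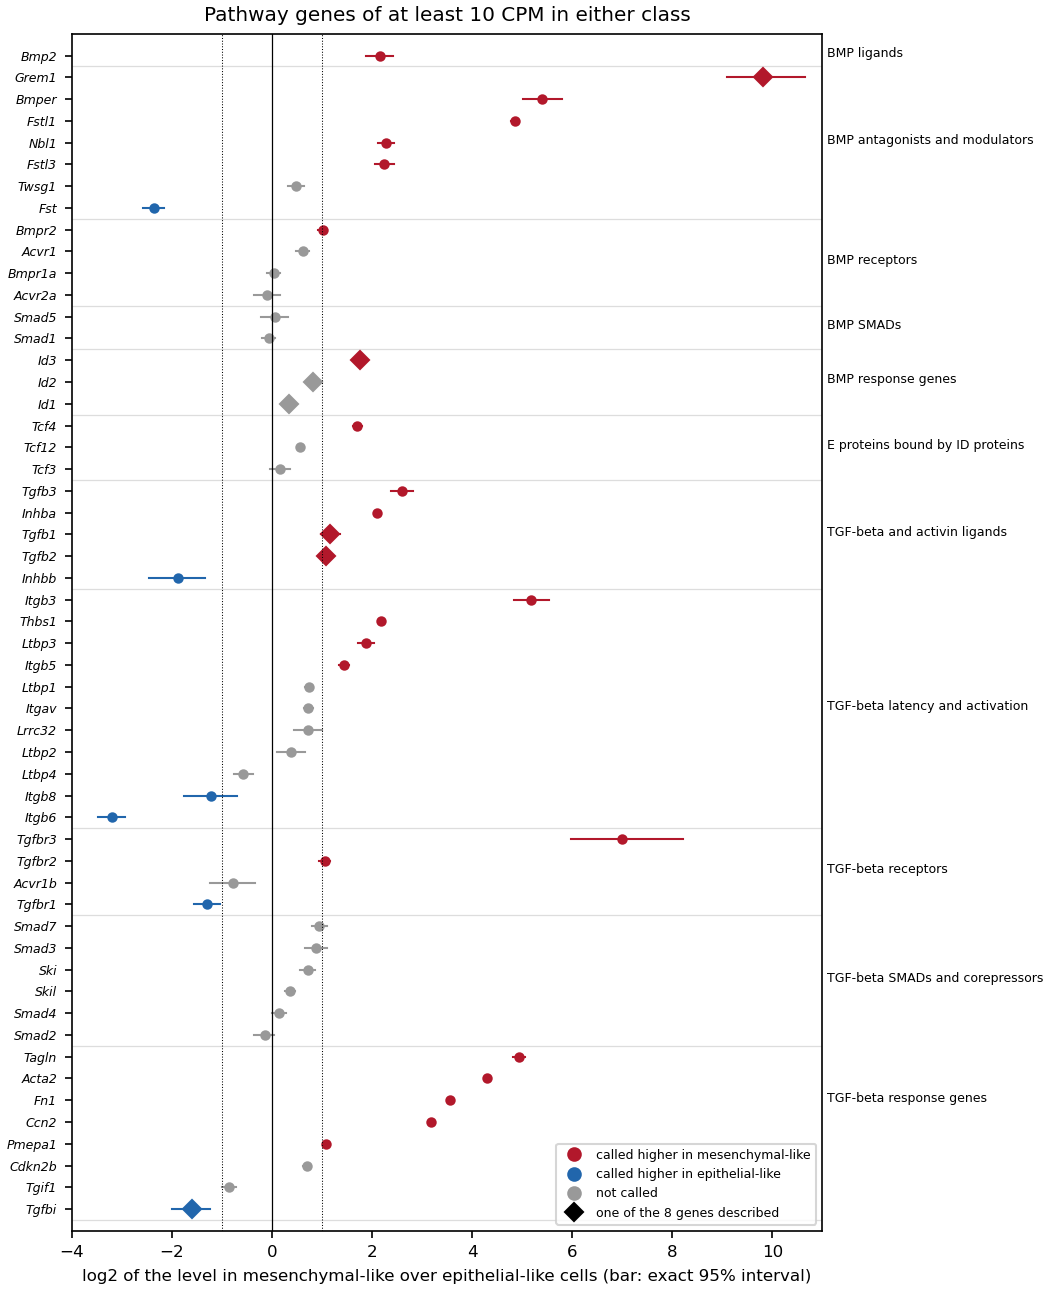
Log2 of the level in mesenchymal-like over epithelial-like cells for the pathway genes reported here that reached 10 CPM in either class, grouped by role. Bars are exact 95% intervals, dotted lines mark a ratio of 2 in either direction, red and blue are calls, grey is not called and diamonds are the 8 genes. Grem1 lies farthest to the right at a log2 ratio of 9.82, and Tgfbi at -1.60 is the only TGF-beta response gene called in the epithelial-like direction.

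The 3 Id genes, the BMP response genes among the 8, had different distributions. Id3 (ENSMUSG00000007872, chr4:136143497-136145755, plus strand) was at 1018 CPM (994.3 to 1043) in mesenchymal-like and 301.7 CPM (296.2 to 307.3) in epithelial-like cells, a ratio of 3.37 (3.27 to 3.48). It was detected in 84.3% (82.6% to 85.9%) and 48.5% (47.6% to 49.4%) of the cells, and in 65.4% and 32.0% after thinning. At thinned depth 20.5% of mesenchymal-like cells had 3 or more Id3 UMIs, against 3.05% of epithelial-like cells, and the highest mesenchymal-like cell had 16. The class that held nearly all Grem1 UMIs also had the higher Id3 level, while Id1 and Id2 were not called between the classes. A link between Grem1 and the Id genes was not tested. Among epithelial-like clusters Id3 was highest in clusters 9 and 1, at 512.8 CPM (446.5 to 586.1) and 509.9 CPM (493.6 to 526.6), whose intervals overlapped, and lowest in cluster 6 at 161.0 CPM (149.1 to 173.5).

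Id1 (ENSMUSG00000042745, chr2:152736251-152737410, plus strand) was at 282.5 CPM (270.0 to 295.4) in mesenchymal-like and 223.5 CPM (218.8 to 228.3) in epithelial-like cells. The ratio was 1.26 (1.20 to 1.33), with intervals apart but below the ratio of 2. The level was highest in the epithelial-like cluster 9, a group of 113 cells led by Ly6c1 and Krt7, at 412.6 CPM (353.4 to 478.9). Clusters 6 (298.8 CPM), 4 (282.5 CPM), 3 (274.6 CPM), 10 (259.5 CPM) and 7 (256.0 CPM) followed, each overlapping the next. The lowest epithelial-like cluster was cluster 5, at 150.8 CPM (140.3 to 162.0).

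Id2 (ENSMUSG00000020644, chr12:25093799-25097140, minus strand) was at 160.0 CPM (150.6 to 169.8) in mesenchymal-like and 90.1 CPM (87.1 to 93.1) in epithelial-like cells. The ratio of 1.78 (1.66 to 1.90) was not called. Its highest level was in the epithelial-like cluster 6, at 208.6 CPM (195.1 to 222.9), above cluster 4 with intervals apart. Cluster 6 was led by Ltf and Lcn2, genes of secreted antimicrobial proteins, and by Gabrp, and it was the epithelial-like cluster with the lowest Id3. From cluster 6 to cluster 2, the lowest epithelial-like cluster at 52.6 CPM (48.3 to 57.1), Id2 differed 3.97-fold.

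Of 10 listed BMP response genes, 3 reached 10 CPM, and these were Id1, Id2 and Id3. The other 7 were below that minimum. Id4 was at 1.18 and 5.37 CPM in mesenchymal-like and epithelial-like cells, Smad6, an inhibitory SMAD of the BMP branch, at 7.09 and 5.47 CPM, and Msx2 had no UMI in either. Among the E proteins that ID proteins bind, Tcf4 was called higher in mesenchymal-like cells, at 241.3 against 73.8 CPM (ratio 3.27), while Tcf12 (ratio 1.49) and Tcf3 (ratio 1.12) were not called.

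Tgfbi was the TGF-beta response gene called in the opposite direction to the rest of those called. Tgfbi (ENSMUSG00000035493, chr13:56609523-56639562, plus strand) had 62 UMIs in mesenchymal-like cells, a level of 9.16 CPM (7.02 to 11.7), and 1053 UMIs in epithelial-like cells, 27.8 CPM (26.2 to 29.6). It was 3.04 times higher in epithelial-like cells, which held 92.4% (90.7% to 93.8%) of its UMIs. Clusters 1 (45.9 CPM), 7 (44.4 CPM) and 5 (38.5 CPM) were highest, with overlapping intervals. Cluster 6, at 8.02 CPM (5.56 to 11.2), overlapped the mesenchymal-like cluster 4, so the low level was not limited to mesenchymal-like cells.

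Of the 10 TGF-beta response genes reported here, all reached 10 CPM, 5 were called higher in mesenchymal-like cells and Tgfbi alone higher in epithelial-like cells, with a median ratio of 2.02. Tagln and Acta2, genes of the contractile apparatus, were at 576.5 against 18.8 CPM (ratio 30.6) and 5074 against 257.3 CPM (ratio 19.7). Both are also in the smooth muscle marker list, so they describe the class as much as the pathway. Fn1, fibronectin, was at 4296 against 363.4 CPM (ratio 11.8), and Ccn2, a matricellular protein, at 1150 against 127.1 CPM (ratio 9.05). Pmepa1 was called at a ratio of 2.12. Cdkn2b (313.6 and 193.8 CPM), Tgif1 (69.1 and 125.7 CPM), Smad7 and Skil were not called.

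**Figure D3:**
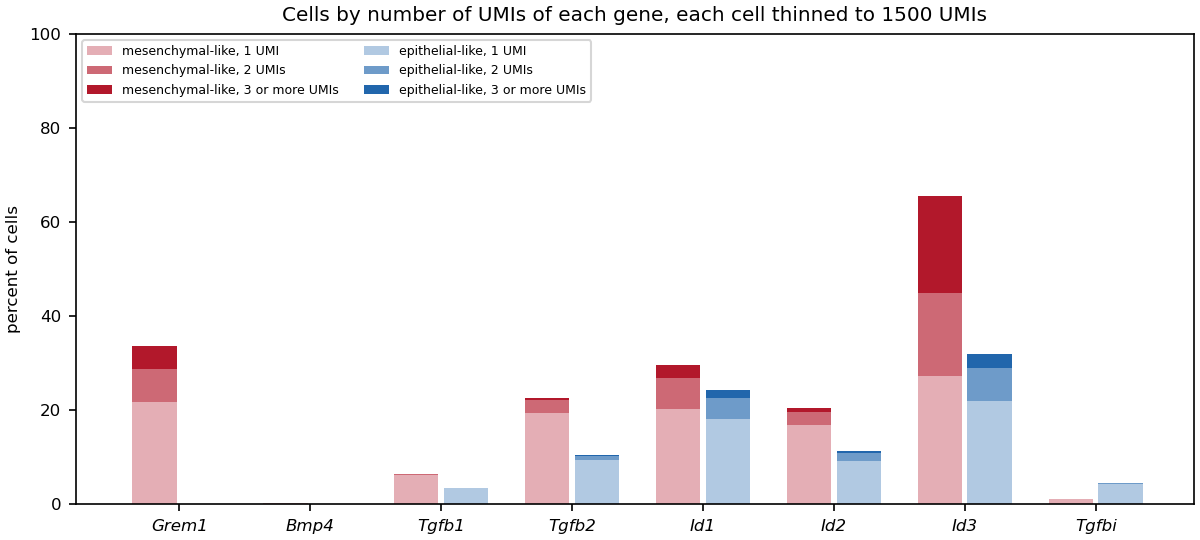
Percent of mesenchymal-like (red) and epithelial-like (blue) cells with 1, 2 or 3 or more UMIs of each of the 8 genes, after thinning each cell to 1500 UMIs (1923 and 11233 cells). Id3 reached 65.4% and 32.0% of cells, and Grem1 33.5% and 0.0801%. Bars for Bmp4 are too low to see, at 0.156% and 0.0356%.

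The mesenchymal-like cells were clustered again on their own, a step chosen after the data were seen. This gave 8 sub-clusters. Sub-cluster 4, with 207 cells and led by Ly6d, Wfdc18 and Krt5, had 9 of 10 epithelial markers in at least 25% of its cells and an epithelial list of 3447 CPM. Its median UMI count was 4434, its median doublet score was 0.315 against 0.0300 over the class, and 77.3% of its cells were among the 10% of all cells with the highest scores, against 5.08% of other mesenchymal-like cells. The doublet caller marked 1 of all kept cells and doublets were not removed. Without this sub-cluster, the ratios between mesenchymal-like and epithelial-like cells were 976 for Grem1 and 3.53 for Id3. They were 2.24 for Tgfb2, 2.31 for Tgfb1 and 0.246 for Tgfbi. Again 4 of the 8 genes were called higher in mesenchymal-like and 1 higher in epithelial-like cells. With the sub-cluster kept, the shares over all genes that reached 10 CPM were 10.5% and 9.86%. Sub-cluster 4 had the lowest Grem1 level of the 8 sub-clusters, 179.5 CPM (153.2 to 209.0), overlapping sub-clusters 5, 6 and 7. Its Tgfbi level of 23.8 CPM (14.9 to 36.0) was the highest.

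Among the other sub-clusters Grem1 was highest in sub-cluster 1, 703 cells led by Brinp3 and including Gas1, at 512.3 CPM (483.3 to 542.7). Sub-cluster 8, 39 cells led by the interferon-induced genes Cxcl10 and Rsad2, was at 394.3 CPM (295.3 to 515.7), and sub-cluster 2, 435 cells led by Gstm2, was at 387.6 CPM (355.3 to 422.0). Sub-cluster 3, 281 cells led by Actg2 with Acta2 at 10198 CPM, was at 267.5 CPM (237.2 to 300.7). Sub-clusters 7, 6 and 5 lay at 242.0, 239.1 and 219.8 CPM with overlapping intervals.

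Id3 had another order. It was highest in sub-cluster 7, 46 cells led by Defb3 and Amtn, at 1743 CPM (1557 to 1946), where Grem1 was at 242.0 CPM. Of the 10 epithelial markers, 5 were found in at least 25% of the cells of sub-cluster 7. Its epithelial list was 901.8 CPM, against 998 CPM over the class with sub-cluster 4 included. Its mesenchymal list was 2711 CPM and its smooth muscle list 5878 CPM, against 3344 and 5761 CPM over the class. Of the 15 mesenchymal markers, Vim was at 340.9 CPM and Col1a1 at 71.5 CPM, both below the class as a whole. The part of these cells in the Id3 order was not tested. Sub-clusters 2 (1218 CPM) and 1 (1130 CPM) followed with overlapping intervals, and sub-cluster 6, 80 cells led by cycling genes, had the lowest level, 673.0 CPM (588.5 to 766.3), overlapping sub-cluster 4 at 728.8 CPM (674.8 to 785.9). Id1 ranged from 208.5 CPM (181.8 to 238.0) in sub-cluster 3 to 340.9 CPM (261.4 to 437.1) in sub-cluster 7, and Id2 from 119.0 CPM (68.0 to 193.3) in sub-cluster 8 to 214.5 CPM (152.5 to 293.2) in sub-cluster 7.

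Bmp2 varied among the sub-clusters. It was at 45.9 CPM (37.5 to 55.6) in sub-cluster 1, 40.2 CPM (30.3 to 52.4) in sub-cluster 2 and 37.6 CPM (22.7 to 58.8) in sub-cluster 5. In sub-cluster 3 a single UMI was counted, 0.952 CPM (0.0241 to 5.30), although this sub-cluster had Inhba at 1905 CPM and Ccn2 at 2421 CPM. Sub-clusters 7 and 8 had no Bmp2 UMI, which allows up to 16.5 and 22.3 CPM at 3 UMIs on 46 and 39 cells. Grem1 was also high in sub-clusters 1 and 2, at 512.3 and 387.6 CPM, but it was at 394.3 CPM in sub-cluster 8 and 219.8 CPM in sub-cluster 5. The part of the sub-clusters in the Bmp2 shares of cells with and without a Grem1 UMI was not tested.

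**Figure D4:**
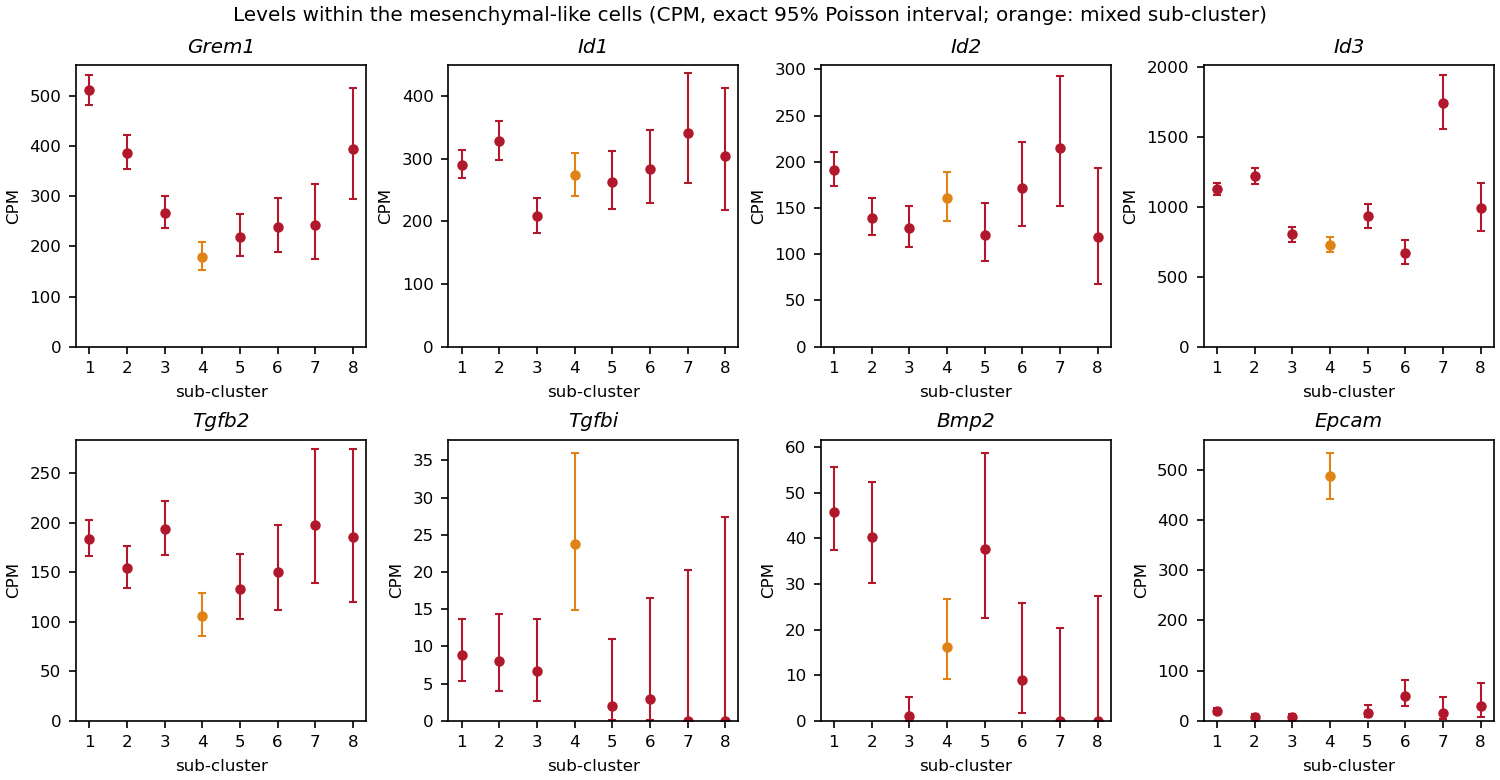
Levels of Grem1, Id1, Id2, Id3, Tgfb2, Tgfbi, Bmp2 and the epithelial marker Epcam in the 8 sub-clusters of mesenchymal-like cells, in CPM with exact 95% Poisson intervals on linear axes from 0 that differ between panels. Orange is the sub-cluster with 9 of 10 epithelial markers, where Epcam was at 486.6 CPM. Grem1 is highest in sub-cluster 1 and Id3 in sub-cluster 7.

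Cells scored as dividing (S or G2M) were compared with cells scored as G1 within each class, by phase scores at thinned depth. Of the cells scored as dividing, 32.9% in the mesenchymal-like and 55.7% in the epithelial-like class had a UMI of the cycling list at that depth, against 6.92% and 5.85% of those scored as G1. No member was called in mesenchymal-like cells (435 dividing, 1488 in G1), where 2.44% of genes were called higher in dividing and 0.195% higher in G1 cells. None was called in epithelial-like cells (4152 dividing, 7081 in G1) either, where the shares were 4.20% and 0.151%. In mesenchymal-like cells Id3 was at 910.4 CPM in dividing and 1054 CPM in G1 cells, a ratio of 0.863 (0.815 to 0.915), and Grem1 at 318.1 and 370.4 CPM, a ratio of 0.859 (0.778 to 0.947). In epithelial-like cells Id1 was at 250.5 CPM in dividing and 202.4 CPM in G1 cells, a ratio of 1.24 (1.18 to 1.29), and Tgfbi at 22.3 and 30.3 CPM, a ratio of 0.734 (0.640 to 0.839). When only dividing-scored cells with a cycling-list UMI (143 in the mesenchymal-like class) were set against G1-scored cells with none (1385), again none of the 8 genes was called in either class. In mesenchymal-like cells Id3 was then at 709.4 against 1050 CPM, a ratio of 0.676 (0.611 to 0.745), and Grem1 at 251.7 against 372.3 CPM, a ratio of 0.676 (0.570 to 0.798). Of the thinned cells, 6.57% had both scores within 0.05 of 0, near the border between phases.

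Likeness of patterns was described by correlation, over cells that share library and depth, with no test. In 1923 thinned mesenchymal-like cells, Id3 had the highest Spearman correlation with Id1 among 2597 genes, at 0.151, and Id1 ranked as number 2 for Id3, after Spp1 at 0.158. For Grem1 the highest were Gas1 (0.194), Fn1 (0.171) and Il13ra2 (0.167), while Id3 was at 0.0764 and Tgfb2 at 0.00955. In 11233 epithelial-like cells, Id2 correlated most with Gabrp (0.133), Ltf (0.108) and Ly6d (0.102), genes high in cluster 6 as Id2 was, and its correlation with Id3 was -0.000674. All these values are low in sparse counts.

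Over the 9 clusters of at least 100 cells, log2 levels of Grem1 were closest to those of Cck, Tnn and Sfrp4 (Pearson correlations of 0.99 each). Grem1 was at 358.6 CPM in cluster 4 and at most 1.19 CPM in the others, so cluster 4 alone sets most of these 3 values. Those of Id3 were closest to Tmem70, Ilk and Nceh1 (0.98 to 0.99), those of Id1 to Pmvk, Elof1 and Gtf2h5 (0.99 each) and those of Id2 to Sbsn, Plac8 and Ifi27l2a (0.91 to 0.94). Tgfb1 was closest to Lamtor3, Arl6ip5 and Tmbim4 (0.96 to 0.98), Tgfb2 to Sbno2, Zmiz1 and Vcl (0.94 to 0.95), and Tgfbi to Tppp and Ltbp4 (0.97 and 0.96). The correlation of Id1 with Id3 over these clusters was 0.813 and fell to 0.327 over the 8 clusters left without the unnamed one, which was low in both genes. Without that cluster the correlation of Tgfb1 with Tgfb2 went from 0.0958 to 0.774 and that of Tgfb1 with Id1 from 0.698 to 0.0238. All 3 closest genes of Tgfb2 also changed, to Xaf1, Tmem106b and Psap, and Id3 was then closest to Ppic, Plscr2 and Tmem70.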

How the data were processed

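The authors deposited UMI counts per gene and barcode from cellranger 8.0.1 (named in the matrix header, per the file headers), with mm10 and Scanpy 1.8.2 named in the submitters' processing notes. The header does not tie the matrix to 1 of the 3 libraries, so it was treated as 1 pooled sample. The annotation used for counting is not given in the sources used here. All 18116 barcodes were distinct and had at least 500 UMIs.

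Cells that passed the filters (minimum 500 genes and 1000 UMIs, maximum 20% UMIs of mitochondrial genes) were clustered from counts scaled to 10000 per cell (scanpy 1.11.5, Leiden with igraph 0.11.9, 2000 variable genes, 30 principal components, 15 neighbours, resolution 0.6), with 85 pathway genes held out. An epithelial-like cluster needed 5 of 10 markers in 25% of cells, and a mesenchymal-like one 5 of 15 markers in 5% of cells and at least 2-fold above other cells. This scoring was set after the clusters were seen. Scrublet, at an expected rate of 5%, called 0.0067% of cells, too few for a working call, and doublets were not removed. Poisson and binomial intervals came from scipy 1.17.1. The levels in CPM were computed here from the deposited counts. A total of 45443280 UMIs lay in kept cells, 6768812 of them in mesenchymal-like and 37834126 in epithelial-like cells. For genes under 3 UMIs, ratios use 3 UMIs as the floor. Positions are those of GENCODE M21 (GRCm38) and promoter sequences those of RefSeq (GRCm38.p6). The calling step was run on simulated Poisson counts with known changes. Such counts hold counting error only, so this run cannot say how the calls hold under the spread between real cells.

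The 8 genes, the pathway lists and the marker lists were chosen with earlier results of these data known. Named genes are the 8, pathway genes called between the classes (up to 4 per list and direction, and others for contrast), list genes with no UMI, the 3 genes most like each member over clusters and over cells, and markers. Some genes that this rule names are not reported here. Pathway genes named although not called were chosen after their values were seen. Alternatives covered cell filters, resolution, seed, held-out genes, classes from marker UMIs, doublet scores, scaling, thinning and the call rule.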

Additional observations from a re-analysis of the deposited data

Results flagged for a closer look

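The 3191 barcodes removed by the filters, with a median of 696 UMIs, were used in no comparison, and 7 of the 8 genes were counted in them above 1.32 CPM, the level that 3 UMIs would give. Tgfb2 was at 94.9 CPM and Id3 at 96.2 CPM. Tgfbi was at 48.8 CPM, Id1 at 47.9 CPM and Id2 at 30.3 CPM. Tgfb1 was at 11.4 CPM and Grem1 at 8.78 CPM, on 20 UMIs. Bmp4 had no UMI there.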

How the results depend on the processing

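No paired analysis was possible because the values form 1 matrix of 1 culture, and each library of the labels is a group of its own with 1 replicate. With 1 sample no spread between cultures can be given, and depth limits Bmp4, with 21 UMIs. Over 17 alternatives, no ratio between mesenchymal-like and epithelial-like cells changed direction: Grem1 ranged from 524 to 1478, Id3 from 3.18 to 3.66, Tgfb1 from 1.99 to 2.54, Tgfb2 from 2.10 to 2.34, Id2 from 1.68 to 1.89, Id1 from 1.24 to 1.31 and Tgfbi from 0.236 to 0.330. Those that changed only the call rule (a ratio of 1.5 or 3, a minimum of 20 CPM or none) could not change these ratios. Tgfb1 was no longer called at 1.99 after thinning, and the cause was not tested. A call ratio of 3 by its construction ended the calls of Tgfb1 (2.24) and Tgfb2 (2.12) and left 2 of the 8 genes called higher in mesenchymal-like cells, and a ratio of 1.5 added Id2 (1.78). All genes called higher in mesenchymal-like and in epithelial-like cells numbered 950 and 896. They were 1713 and 1759 at a ratio of 1.5, 556 and 459 at a ratio of 3, and 1873 and 1631 with no CPM minimum. With classes set by marker UMIs in each cell, which left many cells in no class, mesenchymal-like cells held 75.4% of the Grem1 UMIs. Leaving out the sub-cluster with 9 of 10 epithelial markers, alone or with the cells in the top 10% of doublet scores, leaving the unnamed cluster out of the correlations over clusters, and asking for a cycling-list UMI in dividing cells were added after the data were seen. The comparison of cells scored as dividing with G1 cells and the shares by Grem1 detection were not run on all deposited barcodes. In that comparison no gene of the 8 was called under any of the 17 alternatives it was run under. Among these, a call ratio of 3 and a minimum of 20 CPM could add no call. The alternative that weighs each cell the same did not alter that comparison and repeated its main result.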
